A study of Homo sapiens with 34 samples.

Results

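The genes described here are 31 enzymes, regulators and carriers of cholesterol and fatty acid synthesis, a named list that was looked up by gene symbol among the 28690 loci of the RNA-seq tables. All 31 had an expressed locus, which means a mean of at least 1 FPKM (fragments per kilobase of transcript, scaled to the size of the library) over the 24 RNA-seq libraries, as did 13979 loci in all. They were read in 4 groups by role. The first held 7 genes from acetyl-CoA to farnesyl pyrophosphate, the second 11 genes from squalene to cholesterol, the third 5 regulators and carriers, and the fourth 8 genes of fatty acid synthesis and desaturation.

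Cholesterol is built from acetyl-CoA through mevalonate, farnesyl pyrophosphate, squalene and lanosterol, and fatty acids are built from acetyl-CoA through malonyl-CoA. Both pathways spend NADPH at several reductive steps. The transcription factors SREBP1 and SREBP2 switch on most of these genes when sterols in the endoplasmic reticulum membrane are low, after SCAP has carried them to the Golgi for cleavage, and INSIG proteins hold SCAP back when sterols are high.

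The cells were U2OS, an osteosarcoma line of human origin, with a stable *Bmal1*:*luc* reporter, in which the *Bmal1* promoter drives luciferase. They were synchronized with dexamethasone, and both conditions share this and the reporter. One culture series received 5 mM 6-aminonicotinamide (6AN), an inhibitor of the NADPH-producing enzymes of the pentose phosphate pathway, and the control received its solvent, DMSO. RNA was taken every 4 hr from CT00 to CT44, which gave 12 libraries per condition and 1 library per condition and time point, and the labels do not say how long the cells had been in 6AN at CT00. BMAL1, CLOCK, H3K4me3, H3K9ac and input ChIP-seq were made after 24 hr, with 1 library per antibody and condition.

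The RNA-seq tables hold FPKM, so read totals are unknown. Depth was estimated from the most common log2 difference between pairs of libraries, at loci with a value of 0 in several libraries. Relative to the table's median it ranged from 0.581 to 1.31 in DMSO and from 0.697 to 1.55 in 6AN. The 2 most abundant loci took 31.1% to 34.5% of all FPKM in DMSO and 34.8% to 41.0% in 6AN. Of 9 osteoblast lineage markers, 6 had a mean of at least 1 FPKM, and *SP7*, *COL1A2* and *IBSP* stayed under 0.5 FPKM in every library. The row of *BGLAP*, counted among the 6, also carries *PMF1*, so its value cannot be given to *BGLAP* alone. The summed level of those 9 markers was 428 to 581 FPKM in DMSO and 140 to 313 in 6AN. *SPARC* and *COL1A1* made up most of the sum, with medians of 324.5 and 129 FPKM in DMSO and 126 and 29.01 in 6AN, while *RUNX2* had 13.3 and 13.8 and *SPP1*, higher in 6AN at all 12 time points, had 2.04 and 3.81. The sum of 5 mesenchymal markers was 1231 to 1381 FPKM in DMSO and 871 to 1131 in 6AN, though *CDH2* was higher in 6AN at all 12 time points. The epithelial keratin *KRT18* had medians of 249 and 119 FPKM, and the hepatocyte marker *SERPINA1* 48.4 and 9.84, each the only gene of its list with a mean of at least 1 FPKM. All 5 haematopoietic markers were under 0.5 FPKM in every library, and no adipocyte marker had a mean of 1. The part of these differences in the results was not tested.

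For 11 of the 31 genes the tables give the same interval to 1 or more other rows, each with an FPKM of its own. Of these, 8 were called by level or by difference of slopes below, namely *ACAT2*, *FDPS*, *CYP51A1*, *SREBF1*, *STARD4*, *FASN*, *FADS1* and *FADS2*. The coordinates given for these genes therefore also cover neighbours, and reads where genes overlap could be split between the rows by the authors' counting. Other rows held 89.7% of the interval's mean FPKM at *SREBF1*, 88.7% at *ACAT2*, 70.1% at *FADS1* and 58.5% at *FADS2*. They held 58.2% at *STARD4*, 30.8% at *FDPS*, 1.33% at *FASN* and 0.499% at *CYP51A1*. These are shares of FPKM and not of reads, and their part in the results was not tested.

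Promoter windows from RefSeq (GRCh38.p14, 250 bases before to 50 after the annotated start, 300 bases in all) were found for 27 of the 31 genes. They were searched on both strands for CCAAT, the box bound by NF-Y, which works beside SREBP at many sterol genes. CCAAT was present in 18 of the 27 windows and in 34.6% of 35116 windows of the same length. Those 35116 windows were not limited to expressed genes, as the 27 are, here and for the motifs below. The form TCACNCCAC of the sterol regulatory element was present in 1 window, that of *SREBF2*, against 1.13% of all windows. The E-box CACGTG, the sequence that BMAL1/CLOCK bind, was present in 4 windows, those of *INSIG1*, *LSS*, *SC5D* and *SCAP*, against 7.26%. GGGCGG, the GC box bound by Sp1 factors, was present in 25 windows, against 45% of all. Of the 18 genes with CCAAT, 14 fell with time in DMSO (below), and of the 9 without it, 5 did. A match describes the letters of the window and is not a measured binding site.

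The windows of the 4 genes with a match that differed most between the conditions are shown here, 5′ to 3′ in the direction of the gene, with CCAAT or its reverse complement in capitals. *EBP* and *FDPS* held 3 matches each, and *SCD* and *HMGCS1* held 2 each.
EBP, chrX:48521558-48521857, plus strand: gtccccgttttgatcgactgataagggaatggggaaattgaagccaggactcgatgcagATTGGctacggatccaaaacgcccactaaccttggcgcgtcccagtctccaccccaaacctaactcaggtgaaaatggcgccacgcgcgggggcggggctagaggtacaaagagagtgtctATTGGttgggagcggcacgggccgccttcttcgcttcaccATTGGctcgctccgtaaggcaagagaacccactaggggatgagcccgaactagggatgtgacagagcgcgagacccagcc
SCD, chr10:100346983-100347282, plus strand: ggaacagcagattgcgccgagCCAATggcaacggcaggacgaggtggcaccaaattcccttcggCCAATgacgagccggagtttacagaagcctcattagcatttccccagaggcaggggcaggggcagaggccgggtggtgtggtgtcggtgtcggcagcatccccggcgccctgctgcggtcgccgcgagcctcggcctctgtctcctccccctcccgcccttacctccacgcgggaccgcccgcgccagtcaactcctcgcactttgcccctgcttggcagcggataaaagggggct
FDPS, chr1:155308616-155308915, plus strand: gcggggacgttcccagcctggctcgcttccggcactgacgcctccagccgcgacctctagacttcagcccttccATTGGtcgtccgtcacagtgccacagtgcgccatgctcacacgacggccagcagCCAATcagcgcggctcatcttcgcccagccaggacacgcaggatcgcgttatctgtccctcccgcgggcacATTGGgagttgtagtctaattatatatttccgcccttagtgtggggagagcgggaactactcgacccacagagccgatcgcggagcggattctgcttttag
HMGCS1, chr5:43313363-43313662, minus strand: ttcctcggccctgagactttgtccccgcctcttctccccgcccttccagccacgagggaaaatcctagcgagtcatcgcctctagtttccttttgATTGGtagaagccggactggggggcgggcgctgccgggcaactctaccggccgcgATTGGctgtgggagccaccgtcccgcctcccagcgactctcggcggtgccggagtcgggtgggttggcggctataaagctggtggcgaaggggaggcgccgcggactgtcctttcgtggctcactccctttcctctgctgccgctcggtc

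A BMAL1 peak overlapped 5 of the windows (below). Those of *SCAP* and *SREBF2* are shown because their peak was called in both conditions, and were chosen after that was seen, while the peaks over *LSS*, *ACACA* and *MVD* were called in 1 condition each. In *SCAP* the capitals mark the E-box, 58 bases before the start. In *SREBF2* they mark the sterol regulatory element, 133 bases before the start, and a reversed CCAAT box 106 bases before it.
SCAP, chr3:47475892-47476191, minus strand: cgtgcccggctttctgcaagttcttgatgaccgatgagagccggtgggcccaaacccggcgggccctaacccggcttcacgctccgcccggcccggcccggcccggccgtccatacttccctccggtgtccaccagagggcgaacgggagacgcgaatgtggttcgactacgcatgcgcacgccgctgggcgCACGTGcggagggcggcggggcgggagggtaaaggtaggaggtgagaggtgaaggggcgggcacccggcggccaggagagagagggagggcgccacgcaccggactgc
SREBF2, chr22:41832855-41833154, plus strand: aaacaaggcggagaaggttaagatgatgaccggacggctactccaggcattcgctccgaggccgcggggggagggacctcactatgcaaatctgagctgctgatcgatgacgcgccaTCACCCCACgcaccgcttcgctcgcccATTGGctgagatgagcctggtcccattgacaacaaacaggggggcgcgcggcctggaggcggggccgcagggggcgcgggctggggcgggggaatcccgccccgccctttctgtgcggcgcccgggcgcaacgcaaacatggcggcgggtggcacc

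The first question was whether the level of these genes differed between 6AN and DMSO. As a group they were lower in 6AN. The median over the 31 genes of the log2 ratio of 6AN over DMSO, each gene's own value being the median over 12 time points of the ratio of FPKM + 1, was -0.38, against -0.03 over all expressed loci. Of the 31 genes, 27 had a median below 0, against 53.6% of expressed loci. There was no test of this difference, because the conditions lie in separate tables with 1 library per time point, and how the tables were scaled to each other is not given in the sources used here. Agent, culture series and table are the same split and cannot be told apart. A gene was therefore called lower when it was lower at all 12 time points and by at least 1.5-fold at the median. That held for 9 of 31 genes, against 7.23% of the expressed loci, and 0 genes were called higher, against 3.44%. With no fold threshold, 16 genes were lower at all 12 time points, against 20.4%, and 1 was higher, against 13.0%. At a 2-fold threshold, 5 genes were lower, against 2.20%. In these bulk samples, fewer cells of a type and less RNA per cell cannot be told apart.

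**Figure D1:**
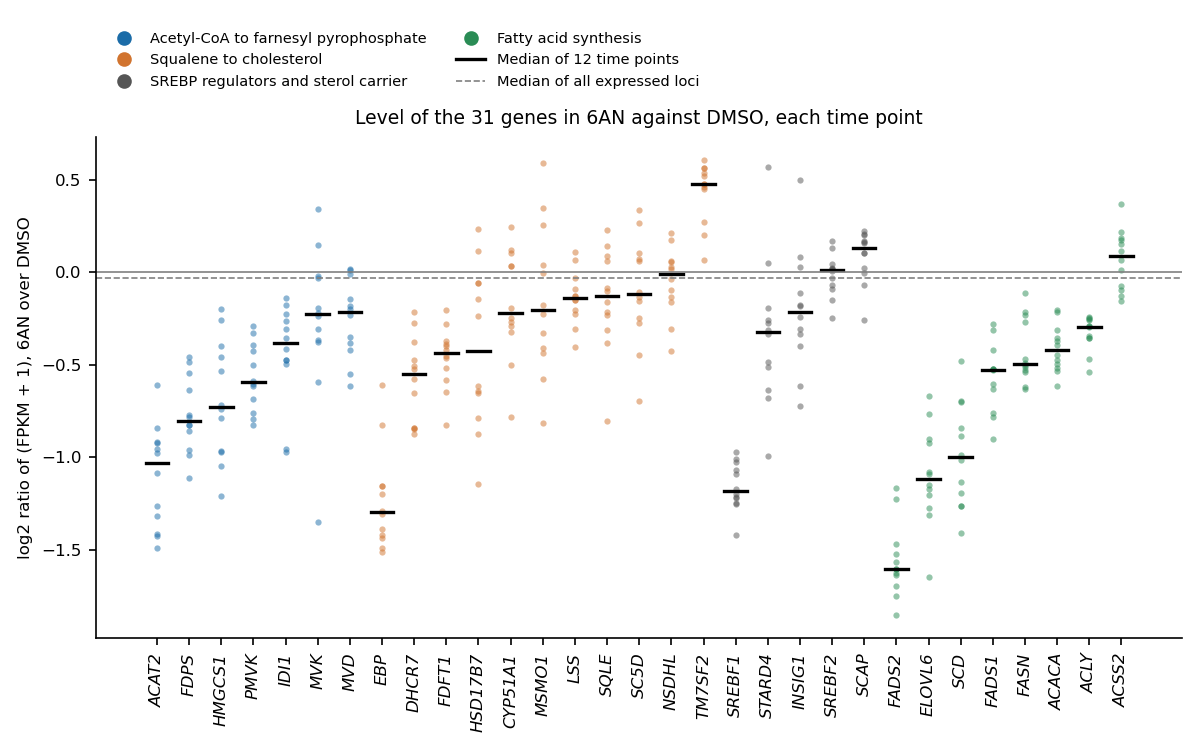
Each point is the log2 ratio of (FPKM + 1), 6AN over DMSO, at 1 of 12 time points for the 31 genes, coloured by role and ordered by median within a role, and the black bar is the median. *FADS2* is lowest at -1.60, *TM7SF2* is the only gene above 0 at all 12 time points, and the dashed line marks the median of all expressed loci at -0.03.

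All 7 genes from acetyl-CoA to farnesyl pyrophosphate had a median ratio below 0, and 4 of them were called lower. *ACAT2* (chr6:159760258-159789703 on hg38), which makes acetoacetyl-CoA, ranged from 11.2 to 37.4 FPKM in DMSO with a median of 21.2, and from 6.38 to 17.1 in 6AN with a median of 8.99. Its ranges overlapped, and both conditions fell with time, but the 6AN library was the lower at every time point, by 2.04-fold at the median (log2 ratio -1.03, SD 0.28 over 12 time points). *HMGCS1* (chr5:43287469-43313512), which condenses acetoacetyl-CoA to HMG-CoA, had 15.1, 24.1 and 40.1 FPKM as its lowest, median and highest values in DMSO and 11.6, 14.0 and 16.8 in 6AN, an order kept for all genes below, and was lower by 1.66-fold (-0.73, SD 0.32).

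*PMVK* (chr1:154924731-154937008), phosphomevalonate kinase, kept to a narrow range in each condition, 27.9 to 37.1 FPKM in DMSO (median 32.2) and 19.9 to 23.2 in 6AN (median 20.7). All 12 of its 6AN values lay below all 12 DMSO values, and the difference was just past the threshold at 1.51-fold (-0.59, SD 0.18). This call was lost with each library centred on its median (-0.55) and without CT00 (-0.58). *FDPS* (chr1:155308747-155331118), farnesyl pyrophosphate synthase, was the most abundant of the 31 genes in both conditions by median FPKM, a level per transcript length. It ranged from 82.3 to 133 FPKM in DMSO (median 105) and from 55.9 to 73.0 in 6AN (median 60.4), again with no overlap, and was lower by 1.74-fold (-0.80, SD 0.20).

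The other three genes of this stretch differed less. *IDI1*, the isopentenyl-diphosphate isomerase, was lower at all 12 time points but by 1.30-fold (-0.38, SD 0.27), with 6.13, 8.32 and 13.7 FPKM in DMSO and 3.96, 5.85 and 7.69 in 6AN. *MVK*, mevalonate kinase, was lower at 10 time points (-0.23, SD 0.42), with 6.64, 7.71 and 14.4 FPKM in DMSO and 3.45, 6.79 and 10.8 in 6AN. *MVD*, the decarboxylase that makes isopentenyl pyrophosphate, was also lower at 10 (-0.21, SD 0.21), with 34.8, 44.6 and 73.3 FPKM in DMSO and 29.3, 36.9 and 55.8 in 6AN. For *MVK* the SD over time points was larger than the difference.

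Among the 11 genes from squalene to cholesterol, *EBP* was the only one called lower. *EBP* (chrX:48521775-48528716), the sterol isomerase, had 27.3, 39.4 and 60.3 FPKM in DMSO and 11.7, 16.3 and 25.4 in 6AN. Its conditions did not overlap, and the level in 6AN was 2.46-fold lower (-1.30, SD 0.27). *FDFT1* and *DHCR7*, the first and the last enzymes of this stretch, were lower at all 12 time points by less than 1.5-fold. *FDFT1*, squalene synthase, had 47.8, 65.4 and 119 FPKM in DMSO and 39.2, 49.4 and 67.0 in 6AN (-0.44, SD 0.17). *DHCR7*, which reduces 7-dehydrocholesterol to cholesterol with NADPH, had 27.2, 39.1 and 57.6 FPKM in DMSO and 18.7, 25.5 and 32.4 in 6AN (-0.55, SD 0.23).

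In *SQLE*, *MSMO1*, *CYP51A1*, *SC5D* and *NSDHL* the median ratio lay between -0.22 and -0.01, and its sign was not the same at all time points. *SQLE*, squalene epoxidase, was lower at 8 time points and higher at 4 (-0.13, SD 0.28), and *MSMO1*, the sterol C4-demethylase, likewise at 8 and 4 (-0.20, SD 0.41). *CYP51A1*, lanosterol 14-demethylase, and *SC5D*, the C5-desaturase, were each lower at 7 and higher at 5 (-0.22, SD 0.29, and -0.12, SD 0.29). *NSDHL*, which works with *MSMO1* at C4, was lower at 6 and higher at 6 (-0.01, SD 0.19). *LSS*, which closes the lanosterol rings, was lower at 10 (-0.14, SD 0.14), as was *HSD17B7*, a C3-ketoreductase of low level here (medians 8.70 and 6.36 FPKM, -0.42, SD 0.44).

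*TM7SF2*, a sterol C14-reductase, went the other way and was higher in 6AN at all 12 time points. It had 23, 26.5 and 29.6 FPKM in DMSO and 30.8, 37.1 and 41.5 in 6AN, with no overlap (0.48, SD 0.17), where 5.89% of expressed loci did not overlap in this direction. Its locus in the tables also carries *VPS51*, a gene of vesicle tethering, so the value cannot be given to *TM7SF2* alone. In all, 10 genes were lower in 6AN with no overlap, against 10.3% of expressed loci, and 6 of those 10 belonged to fatty acid synthesis.

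Of the 8 fatty acid synthesis genes, 7 were lower in 6AN at all 12 time points and 3 were called lower. *FADS2* (chr11:61799624-61867354), the delta-6 desaturase that starts polyunsaturated fatty acid synthesis, differed most of all 31 genes. It had 48.9, 73.6 and 110 FPKM in DMSO and 20.5, 23.7 and 35.6 in 6AN, so that the highest 6AN library stayed below the lowest DMSO library, and the level was 3.04-fold lower (-1.60, SD 0.20). *ELOVL6* (chr4:110049072-110198664), which lengthens palmitate to stearate, had 15.1, 18.2 and 20.8 FPKM in DMSO and 5.65, 8.34 and 9.44 in 6AN, and was 2.17-fold lower (-1.12, SD 0.26). *SCD* (chr10:100347014-100364831), the delta-9 desaturase that makes oleate, had 50.6, 71.5 and 105 FPKM in DMSO and 27.8, 35.7 and 43.0 in 6AN, and was 2.0-fold lower (-1.0, SD 0.28). None of the 3 overlapped between conditions.

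The enzymes that make palmitate were lower by smaller steps. *ACLY*, which makes cytosolic acetyl-CoA from citrate, had 64.7, 72.4 and 90.2 FPKM in DMSO and 51.2, 57.0 and 63.7 in 6AN (-0.29, SD 0.09). *ACACA*, acetyl-CoA carboxylase, had 8.91, 10.4 and 11.3 FPKM in DMSO and 6.56, 7.43 and 8.89 in 6AN (-0.42, SD 0.13), with its highest 6AN value just under its lowest DMSO value. *FASN*, fatty acid synthase, overlapped between conditions, with 48.7, 60.0 and 80.9 FPKM in DMSO and 37.2, 44.2 and 57.3 in 6AN (-0.50, SD 0.17). *FADS1*, the delta-5 desaturase next to *FADS2*, had 35.5, 44.6 and 54.5 FPKM in DMSO and 27.9, 29.4 and 34.3 in 6AN (-0.53, SD 0.19). *FADS1* and *FADS2* lie in the same interval of the tables. *ACSS2*, which makes acetyl-CoA from acetate, did not follow the others, with medians of 13.2 FPKM in DMSO and 13.4 in 6AN and a ratio above 0 at 8 time points (0.09, SD 0.16).

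Of the regulators, only *SREBF1* was called lower. *SREBF1* (chr17:17681472-17837011), which encodes SREBP1, had 21.8, 23.9 and 32.1 FPKM in DMSO and 8.33, 10.6 and 13.7 in 6AN, a 2.27-fold lower level with no overlap (-1.18, SD 0.13). *SREBF2*, which encodes SREBP2, had 49.4, 61.8 and 73.6 FPKM in DMSO and 51.5, 57.2 and 80.8 in 6AN, and its ratio was above 0 at 7 of 12 time points (0.01, SD 0.11). *SCAP*, the escort of both proteins, had medians of 30.7 FPKM in DMSO and 33.4 in 6AN and a ratio above 0 at 9 time points (0.13, SD 0.14). For *SREBF2* and *SCAP* the difference was smaller than the SD over time points.

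*INSIG1*, the sterol-sensing brake that is itself an SREBP target, was lower at 9 time points (-0.21, SD 0.32), with 4.92, 7.41 and 14.5 FPKM in DMSO and 5.04, 6.55 and 9.25 in 6AN. *STARD4*, a cytosolic sterol carrier, was lower at 10 (-0.32, SD 0.39), with 11.6, 19.3 and 28.2 FPKM in DMSO and 12.5, 14.8 and 17.7 in 6AN. Both genes were below DMSO at CT00 and above it at CT44 in 6AN.

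The second question was how the genes moved over the time course within each condition, where all values come from 1 table and a test is possible. Slopes were fitted with limma on log2(FPKM + 1), and the spread around the line over time points stands in for the error, since no time point has a replicate. The time points of a condition may come from 1 culture series, so p-values measure only that spread. In DMSO, 23 of 31 genes fell with time at a Benjamini-Hochberg adjusted p of at most 0.05 and 0 rose, where 3.13% of expressed loci fell and 3.13% rose. In 6AN, 15 genes fell, against 13.1%, and 1 rose, against 12.3%. At an unadjusted p under 0.05, 25 genes fell in DMSO, against 10.4%, and 1 rose, *ELOVL6*, against 10.4%. The 13 genes that fell in both conditions, against 1.51%, were *ACAT2*, *HMGCS1*, *MVD*, *FDFT1*, *SQLE*, *LSS*, *NSDHL*, *EBP*, *DHCR7*, *SREBF2*, *ACLY*, *FASN* and *FADS2*. When the last 6 time points were compared with the first 6, 15 genes fell in DMSO, against 1.77%.

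**Figure D2:**
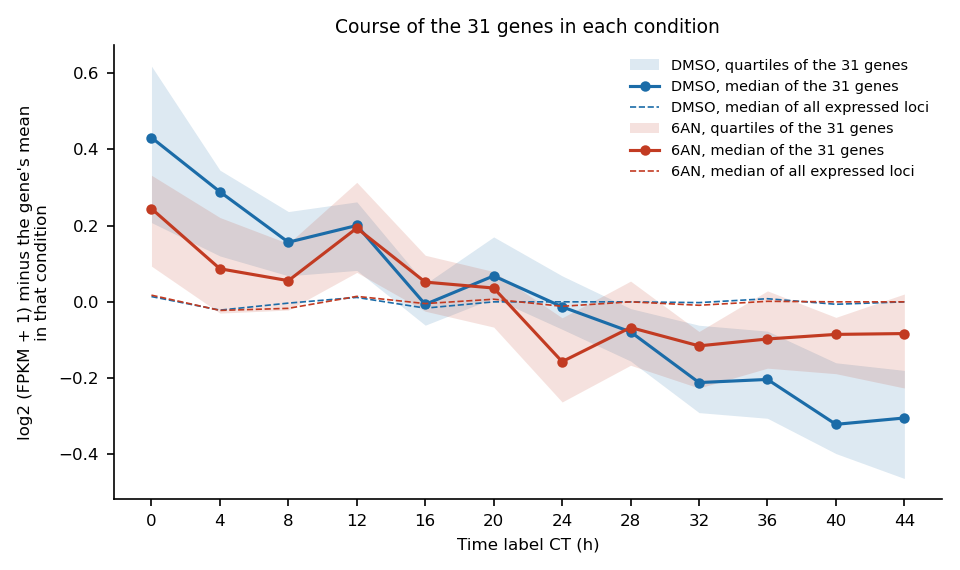
The y axis is log2(FPKM + 1) minus the gene's mean in that condition and the x axis the time label in hours. Lines are medians of the 31 genes, shaded bands the range between their quartiles, and dashed lines the medians of all expressed loci. The DMSO median goes from 0.43 at CT00 to -0.30 at CT44 and the 6AN median from 0.24 to -0.08, while the dashed lines stay between -0.02 and 0.02.

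In DMSO the median of the 31 genes stood 0.43 above the genes' own means at CT00, with 28 genes above, and at -0.30 at CT44, with 6 genes above. The highest value fell at CT00 in 21 genes, and the lowest at CT40 or CT44 in 21. The level at CT00 was 1.83 times that at CT44 at the median of the 31 genes, and 3.34 times in *ACAT2*. In 6AN the highest value fell at CT00 in 14 genes and the lowest at CT40 or CT44 in 7, and the CT00 level was 1.25 times that at CT44 at the median.

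The steepest slopes in DMSO were those of *ACAT2*, *MSMO1* and *HMGCS1*. *ACAT2* fell by 0.73 on the log2 scale per 24 hr (SE 0.10, adjusted p = 0.00153 in limma), *MSMO1* by 0.67 (SE 0.10, adjusted p = 0.00338) and *HMGCS1* by 0.66 (SE 0.07, adjusted p = 0.000381). The smallest p belonged to *LSS*, which fell by 0.41 (SE 0.03, adjusted p = 3.33e-05) from 26.97 FPKM at CT00 to 14.7 at CT44, with a median of 19.5. By role, 5 of 7 genes fell from acetyl-CoA to farnesyl pyrophosphate, 9 of 11 from squalene to cholesterol, 3 of 5 among regulators and carriers, and 6 of 8 in fatty acid synthesis. The 8 genes without a called slope in DMSO were *MVK*, *PMVK*, *TM7SF2*, *HSD17B7*, *SREBF1*, *SCAP*, *ACSS2* and *ELOVL6*. *MVK* had a slope of -0.37 (SE 0.10), just short of the threshold at an adjusted p of 0.0547 in limma. *SREBF1* and *ELOVL6*, which were called lower in 6AN, had slopes of 0.14 (SE 0.07) and 0.17 (SE 0.05) in DMSO.

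The 6AN slopes were shallower in most genes. *ACAT2* fell by 0.63 per 24 hr (SE 0.11, adjusted p = 0.00217 in limma) and *EBP* by 0.52 (SE 0.12, adjusted p = 0.00709), close to their DMSO slopes of -0.73 and -0.55. *MVK* fell by 0.54 (SE 0.14, adjusted p = 0.0178) and *TM7SF2* by 0.17 (SE 0.04, adjusted p = 0.0157), and these were the 2 genes that fell in 6AN without a called slope in DMSO. For neither gene was a difference between the slopes called (adjusted p of 0.63 and 0.12 in limma). Both 6AN calls were lost without CT00, and that of *TM7SF2* also without CT44. *STARD4* rose by 0.15 (SE 0.05, adjusted p = 0.0488), but this call was lost in 4 of 7 alternatives. Without the library at CT00, 10 genes fell in 6AN, against 8.05% of expressed loci in that fit, and *STARD4* was no longer called without either the first or the last time point.

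The difference between the slopes was tested in 1 model over the 24 libraries, in which a constant factor between the tables drops out. In 10 of 31 genes the slope in 6AN lay above that in DMSO at an adjusted p of at most 0.05, against 4.04% of expressed loci, and in 0 below, against 4.81%. At an unadjusted p under 0.05, 14 genes lay above, against 10.9%, and 1, *TM7SF2*, below, against 11.9%. The split over all expressed loci was 565 above and 672 below, and 785 above and 612 below when each library was centred on its median, under which 12 of the 31 genes were called above, against 5.62%, and 0 below. With the libraries of each time label paired, 11 genes were called above, the 10 and *IDI1*, against 5.04%. The 10 genes came from all 4 roles and were *HMGCS1*, *FDPS*, *SQLE*, *CYP51A1*, *MSMO1*, *SC5D*, *STARD4*, *FASN*, *SCD* and *FADS1*. All of them fell in DMSO. In 6AN, *HMGCS1*, *SQLE* and *FASN* also fell, *STARD4* rose, and the other 6 had no called slope. With the last 6 against the first 6 time points, *CYP51A1*, *SC5D* and *STARD4* kept the call, where 1.87% of expressed loci were called above.

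**Figure D3:**
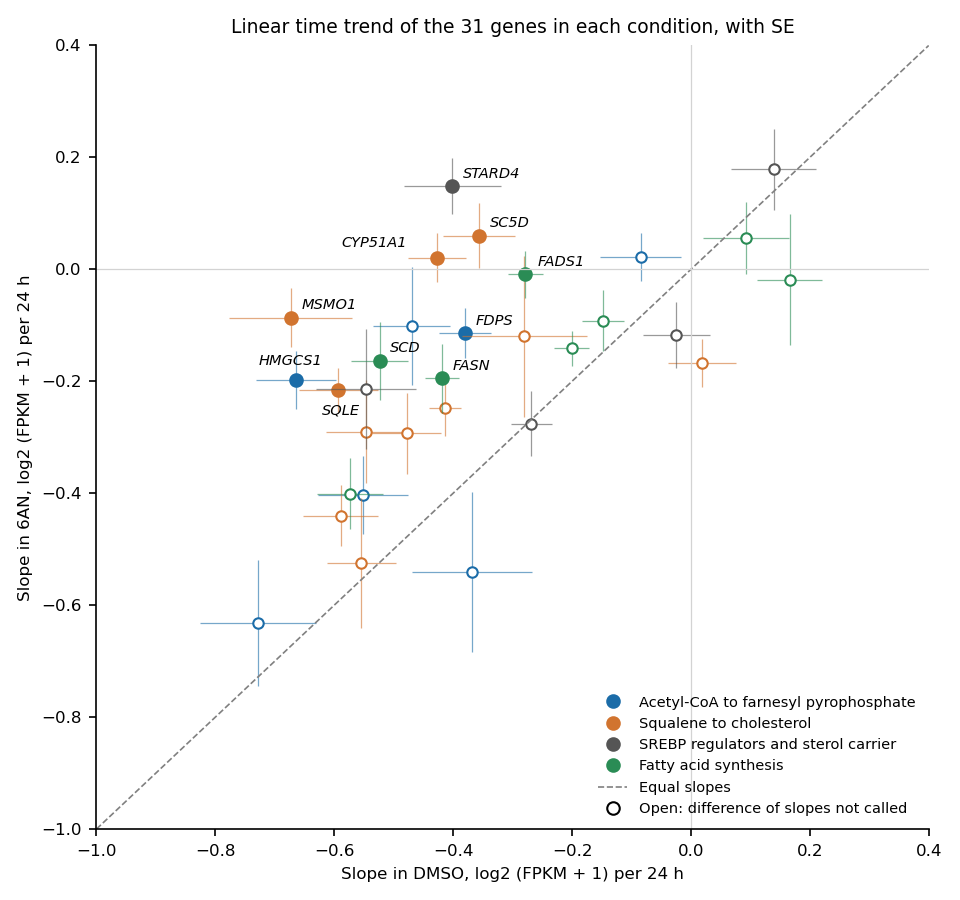
Each circle is 1 of the 31 genes, with its slope in DMSO on the x axis and in 6AN on the y axis, both in log2(FPKM + 1) per 24 hr, with SE bars and colours by role. Filled, named circles are the 10 genes whose slopes differed at an adjusted p of at most 0.05, and all of them lie above the dashed line of equal slopes.

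The largest difference was in *MSMO1*. It went from 50.6 FPKM at CT00 to 15.6 at CT44 in DMSO, with a median of 30.9, while in 6AN it stayed between 21.9 and 28.3 with a median of 24.4. The slopes were -0.67 and -0.09, and differed by 0.59 (SE 0.12, adjusted p = 0.00264 in limma). *STARD4* came next, with slopes of -0.40 in DMSO and 0.15 in 6AN and a difference of 0.55 (SE 0.10, adjusted p = 0.000884). For both genes DMSO was the higher condition at CT00 and the lower at CT44.

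*HMGCS1* had slopes of -0.66 and -0.20, which differed by 0.47 (SE 0.09, adjusted p = 0.00141 in limma). Unlike *MSMO1* and *STARD4* it was lower in 6AN at all 12 time points, and its fold between CT00 and CT44 was 2.38 in DMSO and 1.20 in 6AN. *CYP51A1* had the smallest p, with slopes of -0.43 and 0.02 and a difference of 0.45 (SE 0.07, adjusted p = 0.000227). It had 33.3, 44.8 and 66.0 FPKM in DMSO and 35.6, 38.2 and 43.6 in 6AN, so only the DMSO range was wide.

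*SC5D* differed by 0.42 (SE 0.08, adjusted p = 0.00248 in limma), with 5.13, 6.56 and 9.28 FPKM in DMSO and 5.00, 6.13 and 6.78 in 6AN. *SQLE* differed by 0.38 (SE 0.08, adjusted p = 0.00381), with 41.0, 58.3 and 102 FPKM in DMSO and 43.5, 52.1 and 59.7 in 6AN. In both genes the conditions overlapped at the low end and the high DMSO values at the early time points had no counterpart in 6AN. *SCD* differed by 0.36 (SE 0.09), *FADS1* by 0.27 (SE 0.05), *FDPS* by 0.27 (SE 0.06) and *FASN* by 0.22 (SE 0.07). *FASN* was nearest the threshold, at an adjusted p of 0.046, and lost the call in 4 of 8 alternatives.

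For *ACAT2*, *EBP* and *SREBF1*, which were called lower in 6AN, no difference between the slopes was called. The slope differences were 0.10 (SE 0.15), 0.03 (SE 0.13) and 0.04 (SE 0.10), with adjusted p-values of 0.772, 0.929 and 0.867 in limma. *FADS2* fell in DMSO by 0.57 (SE 0.06) and in 6AN by 0.40 (SE 0.06), and the difference of 0.17 (SE 0.09) was not called. *SREBF2* fell by 0.27 (SE 0.03) in DMSO and by 0.28 (SE 0.06) in 6AN. *NSDHL*, with 20.4, 29.1 and 39.0 FPKM in DMSO and 21.9, 28.7 and 34.8 in 6AN, fell by 0.48 (SE 0.06) and by 0.29 (SE 0.07).

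**Figure D4:**
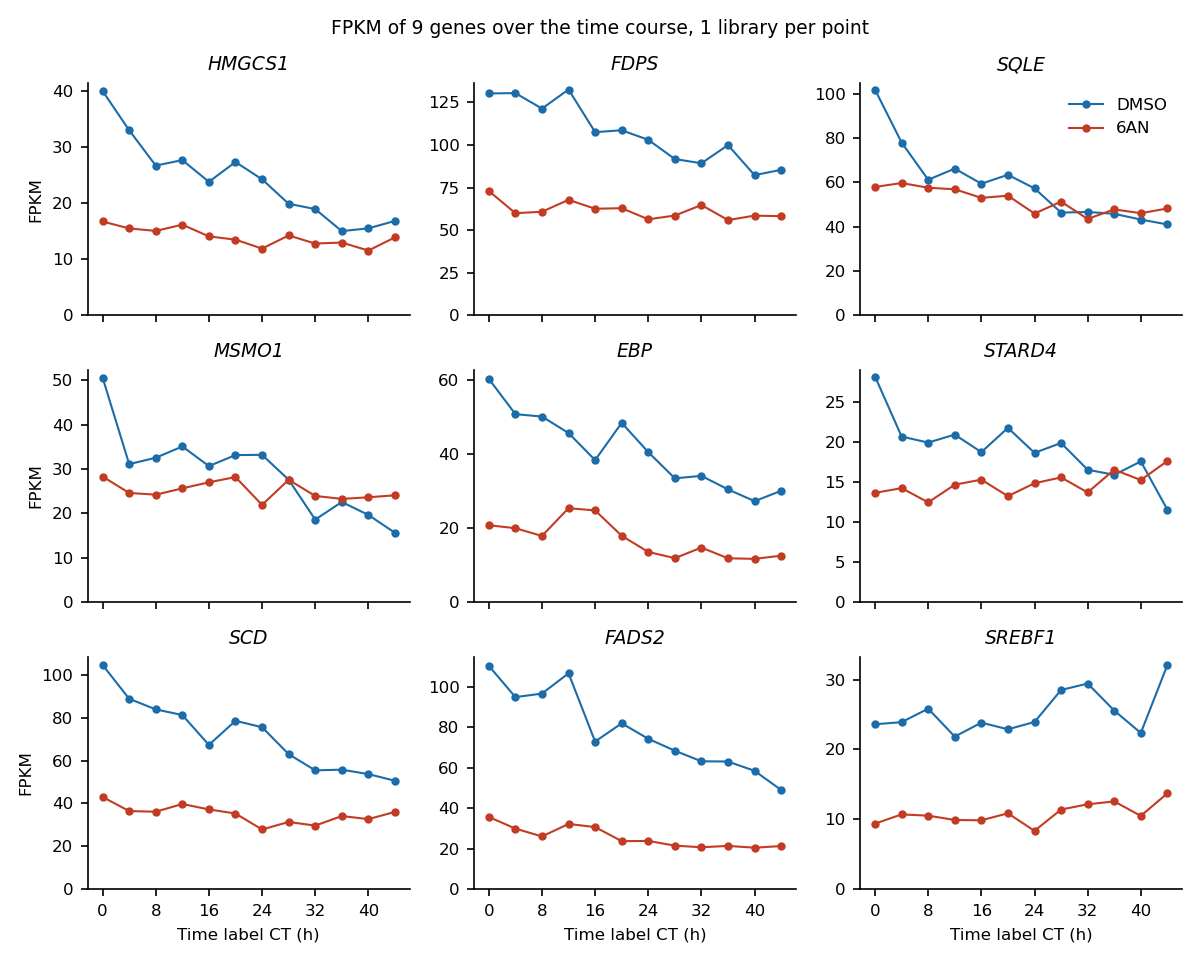
FPKM (y axes, from 0) against the time label in hours for 9 genes, with 1 library per point, DMSO in blue and 6AN in red. *HMGCS1*, *FDPS*, *EBP*, *SCD*, *FADS2* and *SREBF1* are lower in 6AN at every time point, and the DMSO courses of *SQLE*, *MSMO1* and *STARD4* start above the 6AN courses and end below them.

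The gap between the conditions was narrower late than early for the group. The median log2 ratio over the 31 genes was -0.78 at CT00, with 27 genes below 0, and -0.18 at CT44, with 19 below 0. Over all expressed loci the median ratio stayed between -0.06 and -0.02 at every time point. At CT24 the group median was -0.58, lower than at the time points on either side, -0.47 at CT20 and -0.33 at CT28.

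The courses of the genes were alike in DMSO. The Pearson coefficient of each gene with the median course of the other genes, over 12 time points that share their libraries, had a median of 0.93, and 23 of 31 genes (74.2%) reached 0.8, against 2.57% of other expressed loci set against the group median. *SCD* was closest at 0.98 and *ELOVL6* farthest at -0.69. In 6AN the median was 0.80 and 15 genes reached 0.8, against 7.34%. With the linear trend removed the medians were 0.43 in DMSO and 0.46 in 6AN, and 3 and 4 genes reached 0.8, against 1.001% and 0.817% of other expressed loci, whose medians were 0.09 and 0.10.

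The study asked about circadian rhythms, so a 24 hr cosine with a linear trend was fitted to each gene. In DMSO and in 6AN, 0 of 31 genes passed an adjusted p of at most 0.05 in limma, against 0.00715% and 0.00% of expressed loci. The lowest adjusted p among the genes was 0.664 in DMSO and 0.48 in 6AN. At an unadjusted p under 0.05 there were 3 genes in DMSO (*HMGCS1*, *MVK* and *SC5D*), against 6.79%, and 4 in 6AN (*FDFT1*, *EBP*, *DHCR7* and *ACLY*), against 7.82%. Over all 13979 expressed loci this fit called 1 in DMSO and 0 in 6AN. It therefore cannot tell whether these genes have a rhythm. The period was held at 24 hr, and other periods were not tested. With RAIN, a different rhythm test, the paper did report circadian transcripts in both conditions. The paper also reports longer periods with the inhibitor. No gene was in both lists, but with 3 and 4 of 31 genes a missing overlap says little.

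BMAL1 and CLOCK are the activators of the circadian clock, and their ChIP-seq was read for sites at these genes. Of 147 sites shared by both factors in DMSO, 0 were assigned to one of the 31 genes, and of 439 in 6AN, 1 was. A shared site was assigned to 0.85% of 13410 expressed genes in DMSO and to 2.38% in 6AN, so that 1 of 31 (3.23%) is near the share of all genes. That site lay over the promoter of *SCAP* (chr3:47475465-47476465, centred 10 bases from the annotated start), where the window printed above carries an E-box. Its signal, in tags per 1000 bases scaled to 10000000 tags, was 21.4 for BMAL1 in DMSO and 34.2 in 6AN, from 16 and 27 tags. For CLOCK it was 31.9 and 38.5, from 13 and 17.5 tags, and the input gave 6.76 and 6.22. With 1 library per condition and so few tags, neither difference was tested. H3K4me3 was 387 and 313 and H3K9ac 156 and 149 at the same site. The log2 change was 0.65 for BMAL1 and 0.26 for CLOCK, beside medians over the 439 sites of 0.46 and 1.10. With the log2 change of the input subtracted, the *SCAP* values were 0.75 and 0.37 and the medians 0.13 and 0.69.

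Among 4001 merged peaks of either factor, 10 lay in or within 10 kb of 7 of the 31 genes (22.6%), against 30.1% of 13410 expressed genes. The 7 were *SCAP*, *SQLE*, *MVD*, *SREBF1*, *ACACA*, *LSS* and *SREBF2*. The peak at *SREBF2* (chr22:41832832-41833052) was called for BMAL1 in both conditions and overlapped the printed window with the sterol regulatory element. *SREBF1* had 3 peaks, 2 for CLOCK and 1 for BMAL1, all called in 6AN only. Of the 10 peaks at these genes, 0 were called for CLOCK in DMSO and 3 in 6AN. For BMAL1, 4 were called in DMSO and 6 in 6AN. The paper reports that CLOCK peaks became more numerous across the genome with the inhibitor. Whether *SREBF1* gained binding beyond that was not tested. *SQLE*, for which no promoter window was found, had 2 BMAL1 peaks, 1 called in each condition. Both lay at the start of the gene, so they need not be separate sites. *ACACA* and *LSS* each had 1 BMAL1 peak called in 6AN, and *MVD* 1 called in DMSO. The other 24 genes, *EBP*, *SCD*, *FDPS*, *HMGCS1* and *FADS2* among them, had no merged peak within that distance.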

How the data were processed

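RNA-seq of rRNA-depleted total RNA gave 24 libraries and ChIP-seq of BMAL1, CLOCK, H3K4me3, H3K9ac and input gave 10. The submitters' processing notes name TopHat, Bowtie, Cufflinks, Bowtie2, HOMER and hg38, with versions not given in the sources used here. The authors deposited FPKM per locus, with 1 table for DMSO and 1 for 6AN, and those values were used as they stand. For ChIP-seq they deposited the signal at shared BMAL1/CLOCK sites, which is tags per 1000 bases scaled to 10000000 tags, and merged peaks with the HOMER peak score as deposited. Triplicate RNA extracts are described in the study's methods, without a word on pooling. All columns of samples were used, so 0 were left out.

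Gene symbols were looked up in the locus table, which gave 33 rows for the 31 genes. The 2 extra rows, of *LSS* and *ACACA* on alternate contigs, were listed at 0. Slopes and rhythms were fitted with limma 3.58.1 (R 4.3.3, moderated with a trend) on log2(FPKM + 1) over 13979 loci with a mean of at least 1 FPKM, with Benjamini-Hochberg adjustment over all of them. The difference in slopes was the product of agent and time over 24 libraries. Levels were set side by side with no test. Motifs and ChIP-seq were read with Python 3.11.15 and pandas 2.3.3, and plots drawn with matplotlib 3.10.9. Fits were also run on simulated libraries with independent noise. That checks the code only, since the real time points of a condition may come from 1 culture series. Depth is unknown, and FPKM values therefore carry no counting error here.

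The 31 genes and the other lists were chosen with earlier results of these data known. The genes named with values were those called by level, slope or difference of slopes and the 12 of largest absolute median log2 ratio, with a shorter account of the rest. From each other list at most the 3 genes of largest absolute median log2 ratio were named, and promoters were shown for 4 genes of largest absolute ratio with a motif. RAIN, the rhythm test of the study, was replaced by harmonic regression. Alternatives covered the pseudocount, the filter, centring, leaving out CT00 or CT44, fold thresholds, early against late time points, and the limma settings. Pairing the conditions by time label was added after seeing the data. Some genes of these pathways are not reported here by name, though list medians may include them.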

Additional observations from a re-analysis of the deposited data

Results flagged for a closer look

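In 10 genes the change over time differed between 6AN and DMSO by the test of the slope difference itself in limma, at an adjusted p of at most 0.05. All 10 differences, 6AN minus DMSO in log2(FPKM + 1) per 24 hr, were above 0. They were 0.59 for *MSMO1*, 0.55 for *STARD4*, 0.47 for *HMGCS1*, 0.45 for *CYP51A1*, 0.42 for *SC5D*, 0.38 for *SQLE* and 0.36 for *SCD*. They were smaller for *FADS1* at 0.27, *FDPS* at 0.27 and *FASN* at 0.22. The share of all expressed loci called in this direction was 4.04%. Only *CYP51A1*, *SC5D* and *STARD4* kept the call in all 8 alternatives. Each slope rests on 12 libraries of 1 time course, and whether the differences would return in a second culture was not tested.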

How the results depend on the processing

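Levels rested on the fold threshold. With 1 direction at all 12 time points and no fold threshold, 16 of the 31 genes were lower in 6AN and 1 higher, and with a 2-fold threshold 5 were lower. The other 5 alternatives gave 8 or 9 lower genes and 0 higher, and a group median log2 ratio between -0.43 and -0.33. *PMVK* was the gene lost, with each library centred on its median and without CT00. Dropping the filter on low FPKM changed only the share over all loci, so it could not move the counts or ratios of the 31 genes. For slopes, early against late time points gave the fewest calls, with 15 genes falling in DMSO and 3 differences between conditions. The rise of *STARD4* in 6AN was lost, leaving 0 rising genes, with no filter, without CT00, without CT44 and with early against late time points. Without CT00, 10 genes fell in 6AN. Over the called genes and 7 alternatives, 10 of 161 calls were lost in DMSO and 12 of 112 in 6AN, and over 8 alternatives 11 of 80 calls of a difference (13.8%), and 0 called slopes changed sign. Rhythm calls stayed at 0 in every alternative run. The log2 changes at the *SCAP* site moved by less than their counting error when the pseudocount was 5 or the input was subtracted, although subtracting the input took the medians over all sites from 0.46 to 0.13 for BMAL1 and from 1.10 to 0.69 for CLOCK.

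The labels give no replicate numbers, but the time labels match the libraries of the conditions 1 to 1. With the time label as a replicate block, an alternative chosen after seeing the data, 11 genes had a slope difference above 0 and 0 below, and all 10 called genes kept the call. Levels were not tested with this pairing, since the tables' scaling to each other is not given. The depth of the RNA-seq libraries is known only relative to each other, 1 library per time point leaves no error between cultures, and the ChIP-seq site at *SCAP* holds 13 to 27 tags per factor and condition.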

Other observations

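Other genes of the same pathways, from lists that do not overlap the 31, were mixed. *PDSS1*, which makes the side chain of coenzyme Q, was lower in 6AN at 11 time points (median log2 ratio of 6AN to DMSO -0.72, SD over time points 0.29). *FNTA*, a subunit of the enzymes that attach farnesyl groups to proteins, was higher at all 12 (0.52, SD 0.26). The median log2 ratio of the 15 other sterol pathway genes was -0.12, with 11 below 0, against 53.6% of expressed loci. Of the 15, 1 was called lower, against 7.23%, and 0 higher, against 3.44%.

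The 8 other genes of SREBP processing and sterol sensing had a median log2 ratio of 0.04. Of the 8, 0 were called lower, against 7.23% of expressed loci, and 0 higher, against 3.44%. In a list this short, 0 is near those shares. *ERLIN1*, a membrane protein of the endoplasmic reticulum, was lower in 6AN at all 12 time points (-0.45, SD 0.10). *SYVN1*, a ubiquitin ligase there, was higher at 11 (0.37, SD 0.20).

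Of 12 expressed sterol transport and LXR genes, 2 were called higher, against 3.44% of expressed loci, and 1 lower, against 7.23%. *VLDLR*, a lipoprotein receptor, had medians of 6.22 FPKM in DMSO and 13.2 in 6AN, with no overlap of its ranges (0.87, SD 0.19). *NPC1*, which exports cholesterol from lysosomes, had medians of 10.9 and 17.6 (0.66, SD 0.26). *SCARB1*, a receptor for high-density lipoprotein, had medians of 21.2 and 13.5 (-0.76, SD 0.29), and its slope in 6AN lay above that in DMSO by 0.40 (SE 0.10, adjusted p = 0.00968 in limma).

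Of 23 expressed fatty acid synthesis genes outside the 31, 6 were lower at all 12 time points, against 20.4% of expressed loci. With the 1.5-fold threshold 0 were called lower, against 7.23%. The median log2 ratio was -0.13, with 18 genes below 0 and a range from -0.50 to 0.39, and *HACD3*, *PNPLA3* and *GPAM* stood at -0.50, -0.45 and -0.42. In fatty acid oxidation, the median log2 ratio of 13 expressed genes was -0.27, with 10 genes below 0. At all 12 time points 6 of the 13 were lower, against 20.4% of expressed loci, and 1 was higher, against 13.0%. By the 1.5-fold rule 2 were called lower, against 7.23%. The 2 called were *ETFB*, an electron carrier of beta-oxidation (-0.62, SD 0.25), and *CPT2*, which hands fatty acids to the mitochondrial matrix (-0.59, SD 0.27). *PDK4*, which holds back pyruvate oxidation, rose in DMSO by 0.61 per 24 hr (SE 0.08, adjusted p = 0.00172 in limma), and its slope in 6AN was lower by 0.57 (SE 0.10, adjusted p = 0.00107).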
